A study of Mus musculus with 6 samples.

Results

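The genes described here are 10 members of the Notch pathway: the 4 receptors Notch1, Notch2, Notch3 and Notch4, the ligands Jag1 and Dll4, and the target genes Hes1, Hey1, Hey2 and Heyl. They were chosen by symbol, and all 10 were found among the 24346 gene symbols measured in mouse hepatic stellate cells. Notch receptors are single-pass membrane proteins that are activated by a ligand on a neighbouring cell. Ligand binding exposes the receptor to cleavage by ADAM proteases and γ-secretase, and the freed intracellular domain enters the nucleus and binds RBPJ to switch on genes such as the HES and HEY transcriptional repressors. In the liver the pathway is known for bile duct formation and for the patterning of vessels, and in pericyte-like cells, to which stellate cells belong, Notch3 and the HEY genes are the best known members.

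The study asked how warm isolation changes the transcriptome of these cells. Cells were isolated by perfusion at 37 or 6 degrees from 3 sources, which were the tumour region of livers of mice fed a high-fat diet, the non-tumour region of such livers, and livers of mice fed a normal diet. All mice were wild type C57BL/6 of 35 weeks, and the cells were sorted as negative for CD31 and CD45.2, which mark endothelial and blood cells, and positive for CD49a. Each of the 6 combinations had 1 RNA sequencing library. The labels do not say how many livers a library held or whether libraries came from separate animals. Each p-value therefore sets a source or temperature difference only against the scatter of these 6 libraries around a model in which both factors add. That scatter may be technical, and whether it covers variation between animals is not known.

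Levels are given in FPKM as the authors deposited them, that is, sequenced fragments per kilobase of a gene's transcript after scaling for library size. Differences were tested with limma on log2(FPKM + 1) for the 11614 genes that averaged at least 1 FPKM, with source and temperature as additive terms, and Benjamini-Hochberg adjustment over all of them. All 10 members were among these genes, and the threshold for passing was an adjusted p of 0.05. The libraries held an estimated 1.64e+07 to 2.30e+07 fragments, and 1 fragment per kilobase was worth 0.0434 to 0.0611 FPKM. The 14 stellate cell markers checked were above 1 FPKM in all 6 libraries, and Lrat, the retinol-storing enzyme, had 483, 538 and 494 FPKM at 37 degrees (tumour region, non-tumour region, normal diet), against 361, 373 and 335 FPKM at 6 degrees. Summed markers of sinusoidal endothelial cells and macrophages, which the sort should have removed, were higher at 6 degrees within each source. For macrophages the temperature groups overlapped. A list of 6 arterial endothelial markers, most of it Gja4, summed to 219, 182 and 126 FPKM at 37 degrees, against 161, 189 and 236 FPKM at 6 degrees. Pecam1, which encodes CD31, was at 10.7, 9.99 and 0.900 FPKM at 37 degrees, against 53.0, 90.6 and 31.4 FPKM at 6 degrees. A list of 21 sinusoidal endothelial markers summed to 976, 1102 and 483 FPKM at 37 degrees, against 2832, 5304 and 2370 FPKM at 6 degrees, and no library had any of them at 0. In the normal diet library of 37 degrees 9 of them were under 1 FPKM. A list of 17 macrophage markers summed to 1058, 41.3 and 58.7 FPKM at 37 degrees, against 2658, 736 and 598 FPKM at 6 degrees, and 3 of them were listed at 0 in the non-tumour region library of 37 degrees.

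The levels of the 10 members ran from 1.39 to 266 FPKM. Hes1 and Heyl were the 2 most abundant members in each of the 6 libraries, with Hes1 between 53.3 and 266 FPKM and Heyl between 32.4 and 72.0 FPKM. Heyl was above Hes1 only in the tumour region library of 6 degrees. Notch1 and Jag1 followed, at 13.4 to 20.8 FPKM and 7.55 to 26.5 FPKM. Hey2 was between 1.39 and 3.89 FPKM, and its lowest value corresponds to about 68 fragments.

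**Figure D1:**
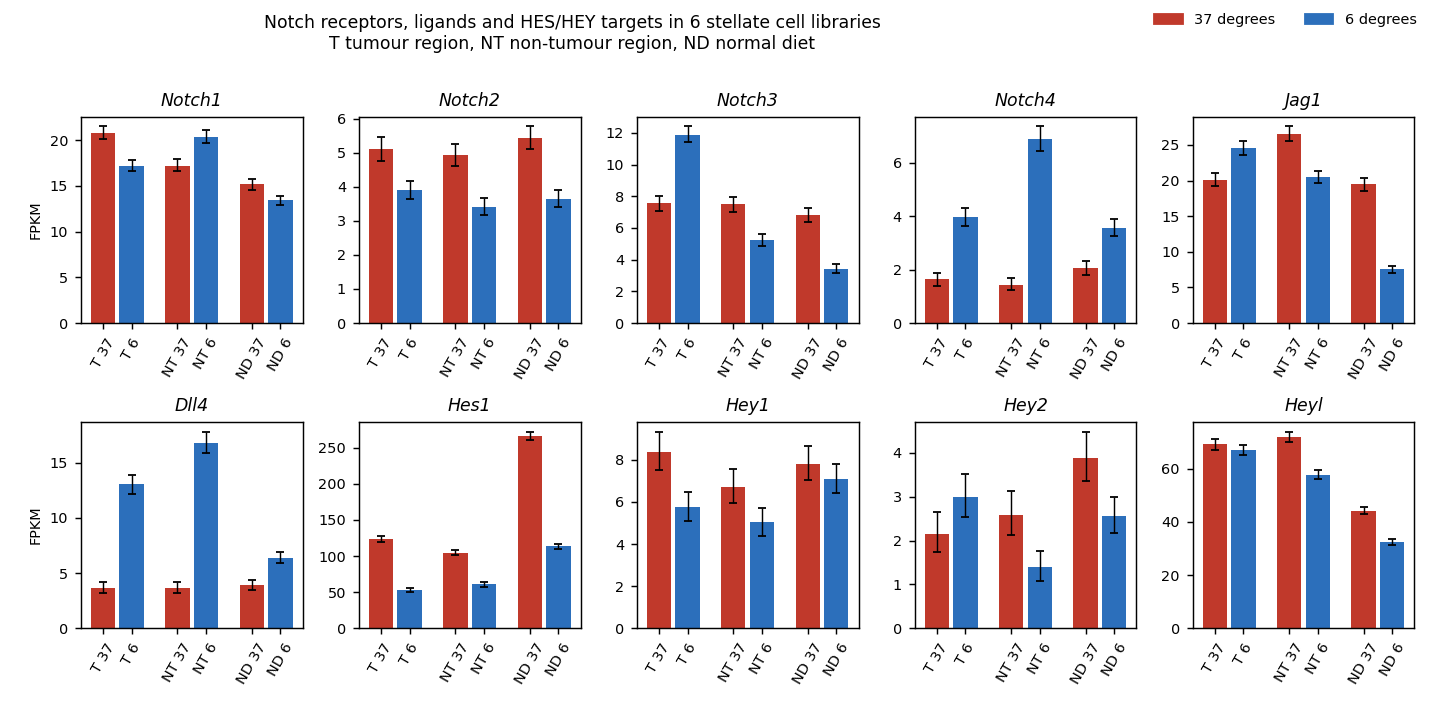
FPKM of the 10 genes in the 6 libraries, with the 37 degrees library left of the 6 degrees library for each source (T, tumour region; NT, non-tumour region; ND, normal diet). Bars are single libraries, each y axis starts at 0 and has its own scale, and error bars are 95% intervals for the counting of fragments, which hold no biological spread. Hes1 is higher at 37 degrees in each source, Dll4 and Notch4 are lower at 37 degrees in each source, and Heyl is lower in normal diet livers at both temperatures.

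Among the 10 members, Hes1 was the 1 that passed the temperature test, and it was higher at 37 degrees. Over all genes, 0.344% passed as higher and 3.96% as lower at 37 degrees. The direction was the same in all 3 sources for 4 members that were higher at 37 degrees (Notch2, Hes1, Hey1 and Heyl), against 23.4% of all genes, and for 2 that were lower (Notch4 and Dll4), against 21.7% of all genes. The values of the temperature groups did not overlap for 3 members (Notch2, Notch4 and Dll4), against 17.7% of all genes. The median log2 fold change of the members was 0.25 for 37 minus 6 degrees, beside 0.01 for all genes. The 14 stellate cell markers had values of the same sign, with a median of 0.36 and 3 passing as higher. Of the 14, 13 were higher at 37 degrees in the tumour region and 14 in each of the other 2 sources, with median paired differences of 0.41, 0.47 and 0.25 in the tumour region, the non-tumour region and normal diet. The part of this in the members' values was not tested.

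Of the receptors, Notch1 was the most abundant in every library. It encodes the receptor best known for cell fate choices in many tissues (GRCm38 chromosome 2, 26457903 to 26516663, minus strand). Its level was 20.8, 17.2 and 15.2 FPKM at 37 degrees in the tumour region, the non-tumour region and normal diet, against 17.2, 20.4 and 13.4 FPKM at 6 degrees in the same order. The 37 degrees library was higher in the tumour region and in normal diet and lower in the non-tumour region, and the groups overlapped. The log2 fold change for temperature was 0.07 ± 0.12 (SE, 3 pairs, limma adjusted p = 0.806), with a 95% interval of -0.25 to 0.38.

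Notch2, the receptor known for bile duct development (chromosome 3, 98013527 to 98150361, plus strand), was at 5.11, 4.93 and 5.43 FPKM at 37 degrees, against 3.89, 3.41 and 3.65 FPKM at 6 degrees. Each 37 degrees value lay above all the 6 degrees values, and the 3 sources were close together within each temperature. The difference of 0.40 ± 0.11 did not pass (adjusted p = 0.135), and its 95% interval was 0.12 to 0.68.

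Notch3 is the receptor of vascular smooth muscle and pericytes (chromosome 17, 32120820 to 32166852, minus strand). It was at 7.56, 7.48 and 6.81 FPKM at 37 degrees, against 11.9, 5.23 and 3.43 FPKM at 6 degrees. The 37 degrees libraries were close to each other, whereas the 6 degrees libraries held both the highest and the lowest Notch3 values of the study. The log2 fold change for temperature was 0.22 ± 0.28 (adjusted p = 0.702).

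Notch4, a receptor found mainly in endothelial cells (chromosome 17, 34564268 to 34588503, plus strand), was the least abundant receptor at 37 degrees. Its level was 1.63, 1.43 and 2.04 FPKM at 37 degrees, against 3.95, 6.89 and 3.56 FPKM at 6 degrees. All 37 degrees values were under all 6 degrees values, and the widest gap was in the non-tumour region, where the 37 degrees value was 0.208 times the 6 degrees value. The difference of -1.07 ± 0.24 on the log2 scale did not pass (adjusted p = 0.0922, lower in 3 of 3 pairs). Notch4 made up 4.66%, 4.61% and 6.93% of the summed receptor FPKM at 37 degrees, against 10.7%, 19.2% and 14.8% at 6 degrees.

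**Figure D2:**
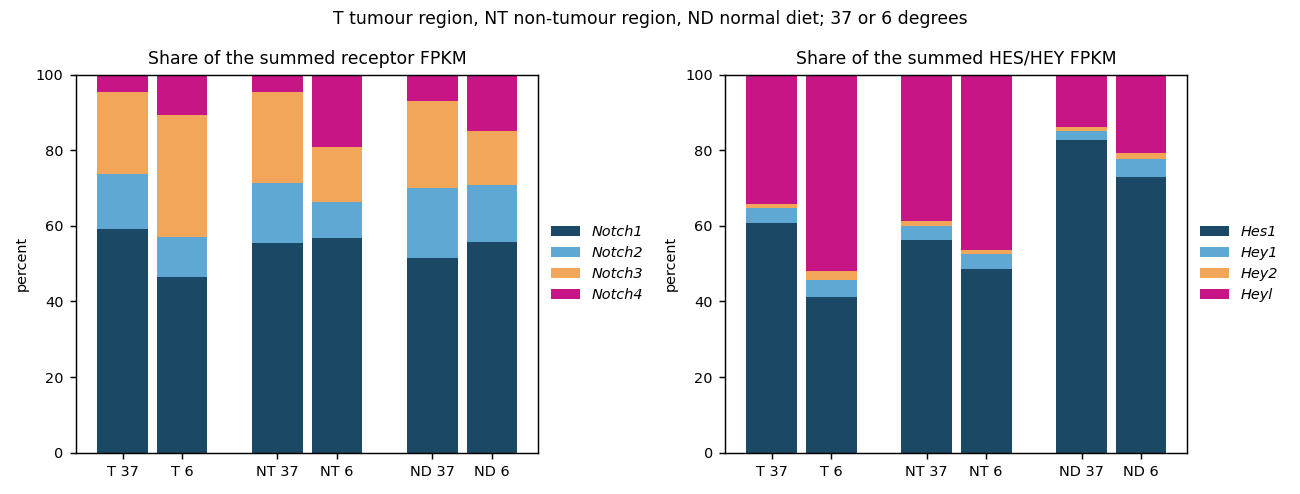
Share of each receptor in the summed FPKM of the 4 receptors (left) and of each target gene in the summed FPKM of Hes1, Hey1, Hey2 and Heyl (right), in percent, for each library (T, tumour region; NT, non-tumour region; ND, normal diet). Notch1 makes up 46.5% to 59.3% of the receptor sum, Notch4 has its larger shares at 6 degrees, and Hes1 has its larger shares in normal diet livers.

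Dll4 followed the same order of libraries as Notch4 at 6 degrees. It encodes a Delta-type ligand of arterial and sprouting endothelial cells (chromosome 2, 119325784 to 119335962, plus strand). It was at 3.68, 3.68 and 3.88 FPKM at 37 degrees, against 13.1, 16.8 and 6.39 FPKM at 6 degrees. The 37 degrees values were all under the 6 degrees values and differed from each other by less than counting error, while the highest 6 degrees value, in the non-tumour region, was 2.63 times the lowest, in normal diet. The log2 fold change was -1.37 ± 0.27 (adjusted p = 0.0686, lower in 3 of 3 pairs), so Dll4 did not pass. With small RNA genes left out of the fit, it passed when either normal diet library was also left out, with a fold change of -1.76 and adjusted p = 0.0272 without the 37 degrees library and 0.0246 without the 6 degrees library.

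Dll4 and Notch4 had lower values in the same libraries as the endothelial markers. Of the 21 sinusoidal endothelial markers, 20 passed as lower at 37 degrees, with a list median of -3.02, and the paired differences had medians of -2.14, -2.91 and -4.09 in the tumour region, the non-tumour region and normal diet. In the same order the paired log2(FPKM + 1) differences of Dll4 were -1.59, -1.93 and -0.60, and those of Notch4 were -0.91, -1.70 and -0.58. By the list median the largest endothelial difference was in normal diet, where Dll4 and Notch4 differed least. The summed FPKM of the list had its widest gap by subtraction in the non-tumour region (1102 at 37 degrees, against 5304 at 6 degrees), where both genes differed most. This gap is not on the log2 scale of the gene differences, and the sums in normal diet were 483 at 37 degrees, against 2370 at 6 degrees. At 37 and 6 degrees Eng alone held 378 and 438 FPKM of the normal diet sums. In the non-tumour region it held 421 and 588 FPKM. Eng was the 1 of the 21 markers that did not pass (-0.33 ± 0.08, limma adjusted p = 0.115), so the sums understate the fold differences of the other markers. Of the 3 arterial markers tested, Efnb2 and Sox17 also passed as lower, by -1.71 ± 0.24 and -1.54 ± 0.21 (adjusted p = 0.0296 and 0.0276). The other, Gja4, was far more abundant and did not pass (-0.10 ± 0.27, adjusted p = 0.873, higher at 37 degrees in 2 of 3 pairs). Its level was 214, 180 and 126 FPKM at 37 degrees, against 148, 174 and 231 FPKM at 6 degrees. Of 16 macrophage markers tested, 9 passed as lower, with a median of -2.55. The part of these other cells in the Dll4 and Notch4 values was not tested. In sorted bulk samples, fewer cells of a type and less RNA per cell cannot be told apart.

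The promoters of Dll4 and Notch4 are shown because both genes were lower at 37 degrees in every pair. The sequences are the 250 bases before the RefSeq start (GRCm38.p6), and capitals mark motif matches. The motifs were searched on both strands in 300 base windows that also hold the first 50 bases of the gene, for the 7 members matched in the RefSeq promoter table (all but Hes1, Hey1 and Heyl).
Dll4 (chr2:119325534-119325783, plus strand): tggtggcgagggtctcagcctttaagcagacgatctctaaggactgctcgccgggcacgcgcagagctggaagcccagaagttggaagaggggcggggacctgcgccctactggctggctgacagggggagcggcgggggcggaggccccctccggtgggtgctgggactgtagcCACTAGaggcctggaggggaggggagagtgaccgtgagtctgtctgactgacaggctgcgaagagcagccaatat
Notch4 (chr17:34564045-34564294, plus strand): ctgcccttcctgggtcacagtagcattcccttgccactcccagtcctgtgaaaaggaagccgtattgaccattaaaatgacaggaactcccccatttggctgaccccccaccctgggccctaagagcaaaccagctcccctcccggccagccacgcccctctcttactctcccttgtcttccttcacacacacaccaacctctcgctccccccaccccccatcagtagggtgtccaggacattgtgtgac
Notch4 start (chr17:34564283-34564305, plus strand): acattgtgTGACTCAggaaacag
The capitals in Dll4 mark an N-box, CACNAG, the letters that HES repressors are known to bind, at -75 to -70 from the start. It was found in 4 of the 7 member windows and in 42.5% of all 32851 windows. The capitals at the Notch4 start mark TGANTCA, the AP-1 letters, at -4 to 3, which 7.8% of all windows hold. A match of letters is a description of the sequence and does not show that a factor binds there.

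Jag1, the Serrate-type ligand that is mutated in Alagille syndrome in humans, was the more abundant of the 2 ligands in all 6 libraries (chromosome 2, 137081456 to 137116644, minus strand). Its level was 20.1, 26.5 and 19.5 FPKM at 37 degrees, against 24.5, 20.5 and 7.55 FPKM at 6 degrees. The normal diet library of 6 degrees was the low one, at less than all the other 5, and the temperature groups overlapped. The temperature difference was 0.45 ± 0.29 (adjusted p = 0.45). The share of Dll4 in the sum of both ligands was 15.5%, 12.2% and 16.6% at 37 degrees, against 34.7%, 45.1% and 45.8% at 6 degrees.

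Among the target genes, Hes1 encodes a repressor of the basic helix-loop-helix family that responds to Notch and also to other signals (chromosome 16, 30064384 to 30067796, plus strand). It was at 123, 105 and 266 FPKM at 37 degrees, against 53.3, 60.7 and 114 FPKM at 6 degrees. The 37 degrees library was the higher in each source, by 2.31, 1.73 and 2.34 times, but the groups overlapped, since normal diet at 6 degrees lay above the non-tumour region at 37 degrees. The temperature difference was 1.06 ± 0.11 on the log2 scale and passed (adjusted p = 0.0178, higher in 3 of 3 pairs). Hes1 still passed without either tumour region library (adjusted p = 0.0431 and 0.0422). It did not pass without the non-tumour region library of 37 or 6 degrees (1.21, adjusted p = 0.0657 and 0.0724) or without the normal diet library of 37 or 6 degrees (0.985, adjusted p = 0.0684 and 0.0683). With small RNA genes left out of the fit, Hes1 passed without each of the 6 libraries in turn (adjusted p from 0.0207 to 0.0448).

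Heyl, a HEY family repressor known from vascular smooth muscle, was also higher at 37 degrees in each source (chromosome 4, 123233556 to 123249875, plus strand). It was at 69.1, 72.0 and 44.2 FPKM at 37 degrees, against 67.0, 57.8 and 32.4 FPKM at 6 degrees. Each 37 degrees value was above its 6 degrees partner, by between 1.03 and 1.37 times, and the difference of 0.27 ± 0.10 did not pass (adjusted p = 0.234). The share of Hes1 in the summed FPKM of the 4 target genes was 60.7%, 56.3% and 82.6% at 37 degrees, against 41.3%, 48.6% and 73.0% at 6 degrees.

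Hey1 and Hey2 encode repressors known from vessel and heart development. Hey1 (chromosome 3, 8663359 to 8667256, minus strand) was at 8.38, 6.70 and 7.82 FPKM at 37 degrees, against 5.75, 5.03 and 7.08 FPKM at 6 degrees. It was higher at 37 degrees in each source, but the groups overlapped, and the difference of 0.32 ± 0.12 did not pass (adjusted p = 0.222). Hey2 (chromosome 10, 30832359 to 30842801, minus strand) was at 2.15, 2.59 and 3.89 FPKM at 37 degrees, against 2.99, 1.39 and 2.56 FPKM at 6 degrees. The tumour region pair went the other way from the other 2 pairs, and the difference was 0.23 ± 0.22 (adjusted p = 0.595).

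Hey2 is shown with its promoter because it was the 1 of the 7 member windows that held the letters bound by RBPJ, the DNA-binding partner of Notch. Capitals mark GTGGGAA or its reverse complement TTCCCAC.
Hey2 (chr10:30842784-30843033, minus strand): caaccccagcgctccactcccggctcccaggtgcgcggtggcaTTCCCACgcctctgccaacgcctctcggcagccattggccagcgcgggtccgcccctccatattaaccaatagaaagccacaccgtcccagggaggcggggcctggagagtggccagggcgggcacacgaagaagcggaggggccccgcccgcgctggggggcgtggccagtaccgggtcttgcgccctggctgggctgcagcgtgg
Hey2 start (chr10:30842773-30842795, minus strand): gctgcagcGTGGGAAagaacctc
The longer form, GTGGGAA, was found at -207 to -201 on the strand opposite to the gene and at -4 to 3 on the gene's own strand, and 6.4% of all windows hold it. The shorter form TGGGAA lies inside it, gave the same 2 places and occurs in 25.6% of all windows. The E-box CACGTG (7.2% of all windows), the CRE letters TGACGTCA (1.8%) and the heat shock element letters GAANNTTC (7.9%) matched none of the 7 member windows, which says only that these letters are not in these windows. Hey2 itself did not pass in any of the 4 contrasts.

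**Figure D3:**
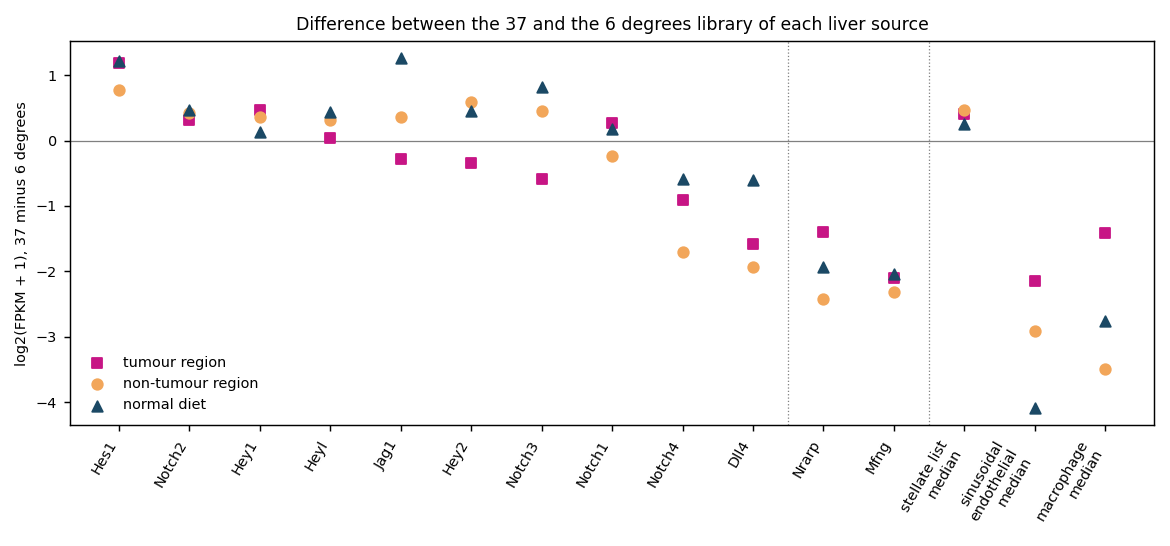
Difference in log2(FPKM + 1) between the 37 and the 6 degrees library of each source, for the 10 genes, for Nrarp and Mfng, and as medians over the tested genes of the stellate, sinusoidal endothelial and macrophage marker lists. Each point is 1 pair of single libraries and has no error. Hes1, Notch2, Hey1 and Heyl are above 0 and Notch4, Dll4, Nrarp and Mfng under 0 in all 3 sources, while Jag1, Hey2 and Notch3 are under 0 in the tumour region alone.

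Between the sources, Hes1 and Heyl passed in opposite directions, in both comparisons of a high-fat diet region with normal diet. These 2 comparisons share the normal diet libraries, so their values are given side by side and no overlap between them was counted. Against normal diet, 1 member passed as higher and 1 as lower in the tumour region, where 5.23% of all genes passed as higher and 2.79% as lower. In the non-tumour region 1 member also passed in each direction, where 2.55% of all genes passed as higher and 2.26% as lower. Groups did not overlap for 4 of 10 members in the tumour region (Notch1, Notch3, Jag1 and Heyl), against 49.6% of all genes, and for 5 of 10 in the non-tumour region (Notch1, Jag1, Hes1, Hey1 and Heyl), against 45.3% of all genes. With 2 libraries against 2, these shares are near those of all genes. The median log2 fold changes of the members were 0.19 for the tumour region and 0.27 for the non-tumour region, beside 0.01 and 0.03 for all genes.

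Hes1 was lower in both regions of high-fat diet livers. At 37 and 6 degrees it was at 123 and 53.3 FPKM in the tumour region and at 105 and 60.7 FPKM in the non-tumour region, against 266 and 114 FPKM in normal diet. At each temperature the normal diet library was the highest, and only the non-tumour region was free of overlap with normal diet. The difference was -1.09 ± 0.13 for the tumour region (SE, 2 pairs, limma adjusted p = 0.0182) and -1.11 ± 0.13 for the non-tumour region (adjusted p = 0.0205). The 6 libraries ran in the order normal diet 37, tumour region 37, normal diet 6, non-tumour region 37, non-tumour region 6 and tumour region 6, and the 95% counting intervals of neighbours did not meet. The tumour region call was kept without either non-tumour region library, and lost without the tumour region library of 37 or 6 degrees (adjusted p = 0.0631 and 0.0586) or the normal diet library of 37 or 6 degrees (0.109 and 0.0728). The non-tumour region call was kept without either tumour region library, and lost without the non-tumour region library of 37 or 6 degrees (0.126 and 0.099) or the normal diet library of 37 or 6 degrees (0.124 and 0.0796). The fold changes without a library ran from -1.21 to -0.97 for the tumour region and from -1.33 to -0.90 for the non-tumour region.

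Heyl was higher in both regions of high-fat diet livers. At 37 and 6 degrees it was at 69.1 and 67.0 FPKM in the tumour region and at 72.0 and 57.8 FPKM in the non-tumour region, against 44.2 and 32.4 FPKM in normal diet. All 4 high-fat diet values were above both normal diet values, and the 3 highest (72.0, 69.1 and 67.0 FPKM) had 95% counting intervals that met those of their neighbours. The difference was 0.83 ± 0.12 for the tumour region (adjusted p = 0.0247) and 0.75 ± 0.12 for the non-tumour region (adjusted p = 0.0386). The tumour region call was kept without the tumour region library of 37 degrees (adjusted p = 0.04996). It was lost without the tumour region library of 6 degrees (0.0632), the non-tumour region library of 37 or 6 degrees (0.0702 and 0.0674) or the normal diet library of 37 or 6 degrees (0.0855 and 0.124). The non-tumour region call was kept without either tumour region library and lost without the non-tumour region library of 37 or 6 degrees (0.239 and 0.258) or the normal diet library of 37 or 6 degrees (0.116 and 0.192). With quantile normalization neither call passed (0.73, adjusted p = 0.053 for the tumour region and 0.68, adjusted p = 0.0791 for the non-tumour region), and without the intensity trend the non-tumour region call did not pass (adjusted p = 0.0708).

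Markers of smooth muscle moved with Heyl in the tumour region. The list of 10 summed to 1557 and 1533 FPKM in the tumour region at 37 and 6 degrees and to 1125 and 892 FPKM in the non-tumour region, against 803 and 638 FPKM in normal diet. Of its 9 tested genes, 5 passed as higher in the tumour region against normal diet and 1 in the non-tumour region, with medians of 1.11 and 0.15, and no gene of the list was at 0 in any library. Of the 14 stellate cell markers, 3 passed as higher in each region and 1, Hand2, as lower in the tumour region, with list medians of 0.03 and 0.18. The 3 were Rgs5 (1.024 in the tumour region and 1.115 in the non-tumour region), Ngfr (0.667 and 0.772) and Colec11 (1.005 and 1.064). The medians of the sinusoidal endothelial list against normal diet were 1.26 in the tumour region and 1.91 in the non-tumour region, and those of the macrophage list were 2.50 and -0.07. Some hepatocyte and bile duct markers were lower with Hes1. The hepatocyte list summed to 273 and 234 FPKM in the tumour region at 37 and 6 degrees and to 184 and 182 FPKM in the non-tumour region, against 332 and 469 FPKM in normal diet. Most of each sum was Trf, with 191 and 173, 164 and 130, and 266 and 293 FPKM in the same order. At 37 degrees Alb and Apoa1 were at 26.6 and 35.0 FPKM in the tumour region, against 5.39 and 7.33 FPKM in normal diet. Cyp2e1 and Ass1 went the other way, with 4.34 and 0 FPKM, against 39.4 and 9.76 FPKM. Of its 8 tested genes, 2 passed as lower in the tumour region and 3 in the non-tumour region, with medians of -0.01 and -0.82. In the tumour region Alb (0.77), Apoa1 (0.59), Serpina1a (0.15) and Ttr (0.01) had positive differences that did not pass, and Fgb was at -0.04. Cyp2e1 was at -3.19 ± 0.21 and -2.87 ± 0.21 in the tumour and the non-tumour region (adjusted p = 0.0107 each), Ass1 at -2.70 ± 0.36 and -3.10 ± 0.36 (0.0214 and 0.0197), and Trf at -0.62 ± 0.13 and -0.93 ± 0.13 (0.056 and 0.0283). The list of 7 bile duct markers summed to 24.8 and 22.8 FPKM in the tumour region and to 5.84 and 4.58 FPKM in the non-tumour region, against 38.2 and 60.6 FPKM in normal diet. Most of each sum was Spp1, the 1 tested gene of the list. Its difference was -1.02 ± 0.24 in the tumour region (adjusted p = 0.0703) and -3.18 ± 0.24 in the non-tumour region (adjusted p = 0.0107). The part of all these cells in the Hes1 and Heyl values was not tested.

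The other members did not pass against normal diet. Notch1 was 0.38 ± 0.15 higher in the tumour region (adjusted p = 0.203) and 0.37 ± 0.15 in the non-tumour region (adjusted p = 0.255), and its 4 high-fat diet values were above both normal diet values. The Jag1 differences were 0.81 ± 0.36 and 0.88 ± 0.36 (adjusted p = 0.24 and 0.253). They were larger between the libraries of 6 degrees, where Jag1 was 3.25 times its normal diet level in the tumour region and 2.71 times in the non-tumour region, against 1.03 and 1.36 times at 37 degrees. Notch3 was 3.46 times its normal diet level in the tumour region at 6 degrees and 1.11 times at 37 degrees, with a difference of 0.84 ± 0.35 (adjusted p = 0.216), and 0.30 ± 0.35 in the non-tumour region (adjusted p = 0.691). Without the tumour region library of 37 degrees and with small RNA genes left out, the Notch3 difference for the tumour region was 1.45 and passed (adjusted p = 0.035). The remaining 5 members had differences between -0.23 and 0.43 in the tumour region and between -0.51 and 0.61 in the non-tumour region, with adjusted p from 0.302 to 0.997.

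**Figure D4:**
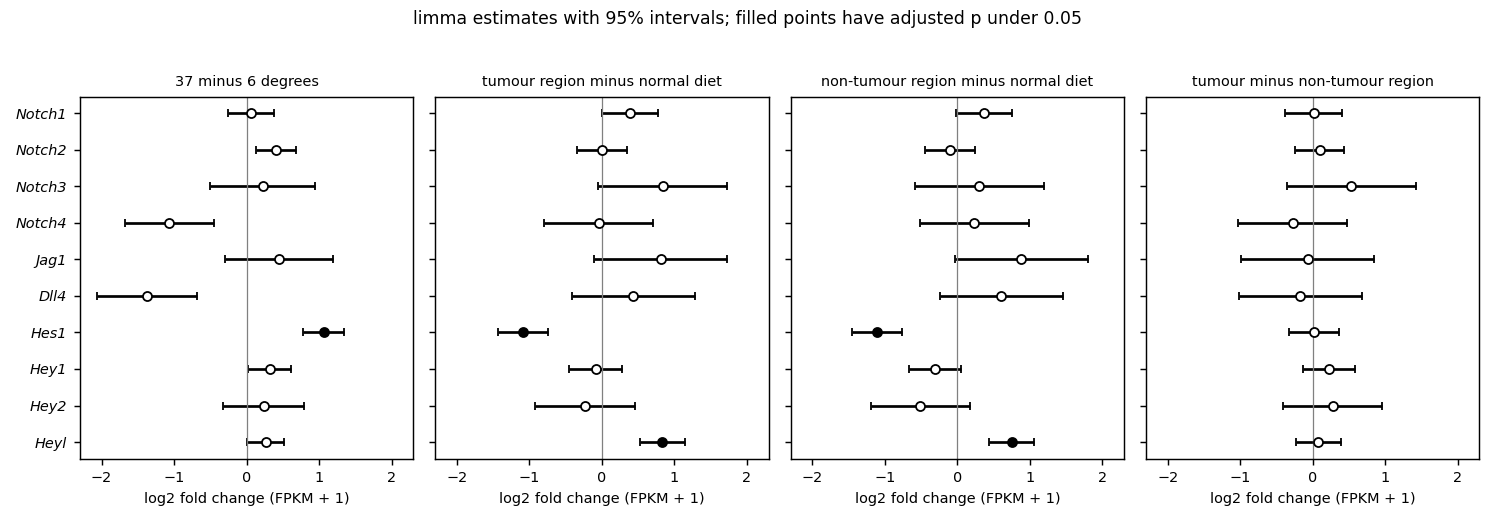
Log2 fold changes of the 10 genes in the 4 contrasts, from limma on log2(FPKM + 1), with 95% intervals. Filled points have an adjusted p under 0.05, which holds for Hes1 with temperature and for Hes1 and Heyl in both comparisons with normal diet. All intervals of tumour against non-tumour region include 0.

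No member differed beyond the threshold between the tumour and the non-tumour region. Of the 10 members, 0 passed the adjusted limma test, where 1 gene of all (0.00861%) passed. At an unadjusted p under 0.05, 0 members were higher or lower, beside 713 higher and 421 lower of all 11614 genes. The log2 fold changes lay between -0.28 for Notch4 and 0.53 for Notch3, with adjusted p from 0.63 to 0.984. Notch3 was the 1 member whose groups did not overlap, against 32.4% of all genes, with 7.56 and 11.9 FPKM in the tumour region at 37 and 6 degrees and 7.48 and 5.23 FPKM in the non-tumour region. Its difference was almost wholly at 6 degrees. The 95% intervals still allowed sizeable differences, of -0.36 to 1.42 for Notch3 and -0.99 to 0.85 for Jag1, so a missed threshold does not show that the regions were alike. The interval was -0.23 to 0.39 for Heyl and -0.32 to 0.37 for Hes1.

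Of 62 other genes of the pathway, 46 could be tested. With temperature, 0 passed as higher and 2 as lower in limma, which is 4.35% beside 4.31% of all tested genes. At an unadjusted p under 0.05, 5 were higher and 6 lower, beside 967 and 1373 of all 11614 genes. The 2 were Mfng, a fringe enzyme that adds sugars to Notch and changes its response to ligands, and Nrarp, a Notch target that restrains the pathway. Mfng was at 0.869, 0.656 and 0 FPKM at 37 degrees, against 7.06, 7.29 and 3.11 FPKM at 6 degrees. Nrarp was at 1.19, 0.563 and 0.276 FPKM at 37 degrees, against 4.81, 7.38 and 3.88 FPKM at 6 degrees. All 37 degrees values of both genes were under all 6 degrees values, as they were for the endothelial markers Pecam1 and Kdr, and the part of endothelial cells in this was not tested. The fold changes were -2.16 ± 0.13 for Mfng (adjusted p = 0.0111) and -1.92 ± 0.22 for Nrarp (adjusted p = 0.0195), and the list median was 0.05. Both calls were lost without the non-tumour region library of 37 degrees (adjusted p = 0.0657 for Mfng and 0.0931 for Nrarp) or of 6 degrees (0.0752 and 0.105) and without the normal diet library of 37 degrees (0.0512 and 0.0806) or of 6 degrees (0.0534 and 0.0826). With small RNA genes left out, Mfng passed without each of the 6 libraries and Nrarp without 3 of them.

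Against normal diet, Mfng passed as higher in the tumour region and Psen2, a catalytic subunit of γ-secretase, in the non-tumour region, and no other gene of the 46 passed in either direction. Mfng was at 0.869 and 7.06 FPKM in the tumour region at 37 and 6 degrees, against 0 and 3.11 FPKM in normal diet. The tumour region value was the higher at each temperature, though the groups overlapped, and the difference was 0.94 ± 0.16 (adjusted p = 0.0362). It did not pass when any 1 of the 6 libraries was left out (adjusted p from 0.0827 to 0.181) or with a pseudocount of 0.1 FPKM (2.22, adjusted p = 0.0944). Psen2 was at 68.7 and 68.9 FPKM in the non-tumour region, against 38.4 and 40.4 FPKM in normal diet. Its groups were far apart and each pair of libraries almost equal, with a difference of 0.79 ± 0.08 (adjusted p = 0.0156). The Psen2 call was lost without the non-tumour region library of 37 or 6 degrees (0.144 and 0.15) or the normal diet library of 37 or 6 degrees (0.106 and 0.0826). Between tumour and non-tumour region 0 of the 46 passed. At an unadjusted p under 0.05, 0 of the 46 were higher and 6 lower, beside 713 and 421 of all 11614 genes.

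No gene of the central transcription complex passed. Rbpj, its DNA-binding subunit, was at 14.5, 15.0 and 12.0 FPKM at 37 degrees, against 10.8, 12.0 and 12.2 FPKM at 6 degrees. Of the 9 genes of the complex, which include the Mastermind co-activators, 0 passed limma in any contrast. At an unadjusted p under 0.05, 1 was lower in the tumour region against normal diet, beside 1205 of all 11614 genes, and 0 in the other 3 contrasts. Of the 6 other ligands all averaged under 1 FPKM. Dll1 was the most abundant of them, at 0.202, 0.430 and 0.304 FPKM at 37 degrees, against 1.20, 2.11 and 0.671 FPKM at 6 degrees, and Dll3 and Dlk2 were listed at 0 in all 6 libraries. Hes3, Hes5 and Helt were also listed at 0 in all 6. Hes1 and Heyl thus stood with Bhlhe40 (31.2 to 303 FPKM) as the abundant genes of this class. The range of Hes6 (7.02 to 17.1 FPKM) was lower and overlapped that of Hey1 (5.03 to 8.38 FPKM).

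The genes outside the list whose levels ran most nearly parallel to a member were named, for 9 of the 10 members, by Pearson's r of log2(FPKM + 1) over the 6 libraries, as a description. Each r is among the highest over all other tested genes, and the points behind it are the same 6 libraries with their shared cell makeup and depth. The 2 highest were Traf3ip2 and Kmt2a for Hes1 (0.991 and 0.990) and Adam9 and Clstn2 for Heyl (0.995 each). For Dll4 they were Vamp5 and Prr5l (0.996 and 0.994), and for Notch4 Card10 and Maf (0.992 and 0.991). Vamp5 was at 12.1, 11.8 and 12.0 FPKM at 37 degrees, against 25.9, 31.0 and 18.1 FPKM at 6 degrees, with the 37 degrees values close together and the non-tumour region highest at 6 degrees, as for Dll4. The closest genes were Adamts3 and Pcm1 for Notch2 (0.991 and 0.990) and G6pdx and Ppwd1 for Notch3 (0.997 and 0.978). They were Larp1 and Klhl18 for Jag1 (0.992 and 0.990), F3 and Cep164 for Hey1 (0.994 and 0.993), and Cercam and Fam189b for Hey2 (0.988 and 0.985).

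The annotation has 4 of the 10 genes overlapping a gene on the other strand (GENCODE, GRCm38): Notch1 (0610009E02Rik and Gm13568), Notch3 (Gm17276), Notch4 (Gm20462) and Dll4 (Gm14207). Whether counting used strand is not given in the sources used here, so reads of these genes and their partners cannot be told apart in the deposited values. On the same strand, Notch1 overlaps Mir6996, and Notch2 overlaps Gm42819 and Gm42820.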

How the data were processed

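RNA was sequenced from 6 libraries of sorted hepatic stellate cells, 1 for each source and temperature. Per the submitters' processing notes, TopHat2 2.1.1, Bowtie2 and Cuffdiff 2.2.1 were used on the mm10 build, with no settings listed. The authors deposited FPKM per gene symbol, which hold no counts and no replicate error. The sources used here give neither the annotation, nor the strand setting, nor how Cuffdiff scaled the libraries.

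Fragments per library were estimated from low FPKM values of genes with a single annotated transcript. Of 516 such genes, 308 (59.7%) had values that were whole multiples of 1 step within 0.01 on the log2 scale. Counting intervals in the levels plot rest on this estimate and on the longest annotated transcript.

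The test was limma 3.58.1 (R 4.3.3) on log2(FPKM + 1), over genes whose mean reached 1 FPKM, with an intensity trend and additive terms for source and temperature. This pseudocount makes fold changes of low genes smaller than their FPKM ratios. The model leaves 2 residual degrees of freedom (median 5.02 with the empirical Bayes prior). A difference of the temperature effect between sources could not be tested and counts as noise. The procedure was tested on simulated data. Alternatives changed the pseudocount, filter, scaling, covariates or trend, left out 1 library, or left out 1299 small RNA symbols (added after seeing the data).

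The text names all 10 members, the pathway genes that passed, markers beside a result, and the 2 genes most correlated with each member (those of Notch1 are not reported here). The members and lists were chosen with earlier results of these data known. Gene positions come from GENCODE and promoters from RefSeq, both on GRCm38.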

Additional observations from a re-analysis of the deposited data

Results flagged for a closer look

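Some members differed in direction between sources or temperatures, by more than the counting error of the libraries. With 1 library per group none of these differences of effects was tested. The ratios here are of FPKM without a pseudocount.

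Notch3 had a log2 ratio of 37 over 6 degrees of -0.65 in the tumour region, against 0.52 in the non-tumour region and 0.99 in normal diet. Jag1 had -0.29 in the tumour region, against 0.37 in the non-tumour region and 1.37 in normal diet. For both genes the tumour region library of 6 degrees was above that of 37 degrees, and the other 2 sources went the other way. Notch1 had 0.28 in the tumour region, -0.25 in the non-tumour region and 0.18 in normal diet.

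The log2 ratio of tumour over non-tumour region was 0.27 at 37 degrees and -0.25 at 6 degrees for Notch1, -0.40 and 0.26 for Jag1, and 0.23 and -0.19 for Hes1. The log2 ratio of non-tumour region over normal diet was -0.51 at 37 degrees and 0.95 at 6 degrees for Notch4.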

How the results depend on the processing

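Libraries were paired by source and by temperature through the additive model. Beyond that, no paired analysis was possible because the labels give no replicate numbers and each group holds 1 library. The number of members that passed was 1 for temperature and 2 for each region against normal diet. Without a filter on low values, and with the other factor left out of the model, it was 0 in these 3 contrasts. With quantile normalization it was 1 for both regions against normal diet, and without the intensity trend 1 for the non-tumour region. Leaving out 1 library, with or without small RNA genes, gave 0 to 2 for temperature, 0 to 3 for the tumour region against normal diet, 0 to 2 for the same contrast of the non-tumour region, and 0 throughout for tumour against non-tumour region. Of the 9 calls named, 15 of 54 leave-one-out refits still passed, and 30 of 54 with small RNA genes left out. No call changed direction, and the cause of the losses was not tested, though each such fit has fewer samples. Over all genes 500, 931, 559 and 1 passed for temperature, each high-fat diet region (tumour, then non-tumour) against normal diet, and the tumour against the non-tumour region. These counts became 283 for temperature and 571 for the tumour region with a mean of at least 5 FPKM. They became 0, 7 and 5 without the other factor, and 0 without the filter. For tumour against non-tumour region 5 passed without the trend and 52 without small RNA genes. Over all alternatives they ran from 0 to 593, 0 to 1081, 0 to 898 and 0 to 161. The share of higher calls for the tumour region against normal diet was 65.2% as reported and 53.6% with quantile normalization. For temperature it was 8% as reported, and 81.8% (9 higher, 2 lower) without either non-tumour region library.

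Fold changes that changed sign belonged to members under the threshold. At a pseudocount of 0.1 FPKM, Notch2 in the tumour region against normal diet was 0.00078, and with quantile normalization Hes1 in tumour against non-tumour region was -0.047. Leaving out 1 library gave -0.032 to 0.22 for Notch1 and -0.073 to 0.63 for Notch3 with temperature. For the tumour region against normal diet it gave -0.065 to 0.062 for Notch2, -0.40 to 0.32 for Notch4, -0.14 to 1.01 for Dll4, -0.23 to 0.058 for Hey1 and -0.67 to 0.20 for Hey2. For the non-tumour region it gave -0.14 to 0.75 for Notch3 and -0.24 to 0.71 for Notch4. For tumour against non-tumour region it gave -0.21 to 0.24 for Notch1, -0.08 to 1.14 for Notch3, -0.75 to 0.20 for Notch4, -0.61 to 0.47 for Jag1, -0.59 to 0.25 for Dll4, -0.19 to 0.24 for Hes1, -0.16 to 0.71 for Hey2 and -0.089 to 0.24 for Heyl. All 60 member levels stayed within their counting intervals under median-ratio rescaling. Depth limits Hey2 and Notch4 most, with about 68 and 157 fragments at their lowest.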
